A study of Mus musculus with 20 samples.

Results

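Microglia, the resident macrophages of the brain, and the antigen presentation machinery that they and other macrophages carry were followed as a set of 33 genes. The set was drawn by name from a table of 18054 genes and covered MHC class II and class I, the homeostatic receptors of microglia, complement C1q, Fc and pattern receptors with their adaptors, lysosome and macrophage markers, and 2 secreted products. Tissue was mouse hippocampus, from wild-type mice and from mice labelled Qtrt1-/-, which lack a functional Qtrt1 gene; its product catalyses the exchange of guanine for the queuosine base in tRNA. Each of 10 animals gave 1 library of ribosome footprints, the mRNA stretches that ribosomes shield from nuclease, and 1 library of input RNA from the same lysate. The 4 groups were 3 wild-type females, 3 knockout females, 2 wild-type males and 2 knockout males. Females were 6 months and 21 or 22 days old. In each male genotype 1 animal was 6 months and 18 days old and 1 was 5 months and 16 days old, so sex and age cannot be told apart. The labels give no treatment, and they name neither the strain nor how Qtrt1 was inactivated.

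Queuosine sits at the wobble position of tRNAs that carry tyrosine, histidine, asparagine or aspartate, and its base comes from diet and gut microbes. Microglia hold their resting state through CSF1R signals and survey neurons through receptors such as CX3CR1, whose ligand is made by neurons, and P2RY12, which senses nucleotides. Activated microglia and border macrophages add MHC class II, osteopontin and phagocytic receptors, while C1q tags synapses for removal.

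Total counts per library ran from 5357812 to 15517982 for footprints and from 9000662 to 13637370 for input. The 33 genes took 0.371% to 0.561% of footprint counts and 0.247% to 0.307% of input counts, and without Apoe they took 0.133% to 0.173% and 0.0658% to 0.0770%. The targeted gene Qtrt1 stood at 0.129 to 1.28 normalised counts per 1000000 counts (CPM) in knockout and 4.25 to 8.47 CPM in wild-type footprint libraries, and at 1.797 to 2.77 against 6.06 to 7.29 CPM in input. Markers of microglia outside the set were present: Fcrls stood at 31.6 to 46.0 CPM, Sall1 at 20.3 to 28.8 and Olfml3 at 10.4 to 16.9 in the 10 input libraries. Their presence does not show which cells supply the members, and Apoe alone took most of the set's counts. Cd3e, which marks T cells, had 0 counts in every input library and at most 2 in a footprint library. Choroid plexus markers were lowest in wild-type females 1 and 2, and the member calls in females, the wild-type comparison of the sexes and the opposite orders are given with and without them. All p-values below are from edgeR quasi-likelihood tests on counts, adjusted by Benjamini-Hochberg over all genes tested, and a gene was called at an adjusted p under 0.05. Differences are log2 values, knockout minus wild type, ± the standard error of the fit.

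The MHC promoters are shown first because all 4 class II genes stood in opposite genotype order in the sexes in at least 1 assay, as did H2-K1 of class I, and class I shares the promoter layout of class II. MHC genes are known to be driven through an X box, a CREB-type site and a CCAAT-type Y box at a fixed spacing. RefSeq promoters of the build GRCm38.p6 were at hand for 25 of the 33 members, but not for Cd74 or H2-Ab1. The stretches below run 5′ to 3′ on the strand of the gene. Capitals mark TGACG, the core of a CREB-type site, and ATTGG, the reverse complement of CCAAT.
H2-Aa: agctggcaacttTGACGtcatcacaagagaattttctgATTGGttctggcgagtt
H2-Eb1: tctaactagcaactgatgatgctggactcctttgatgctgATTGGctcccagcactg
H2-K1: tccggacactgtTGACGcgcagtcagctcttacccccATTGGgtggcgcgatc
H2-D1: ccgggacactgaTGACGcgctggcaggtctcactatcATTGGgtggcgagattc
B2m: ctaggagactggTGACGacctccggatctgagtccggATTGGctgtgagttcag
These lie at chr17:34287855-34287909, minus strand for H2-Aa, chr17:34305768-34305824, plus strand for H2-Eb1, chr17:34000348-34000400, minus strand for H2-K1, chr17:35262981-35263034, plus strand for H2-D1 and chr2:122147597-122147650, plus strand for B2m. Between the end of TGACG and the start of ATTGG lay 20 bases in H2-K1, H2-D1 and B2m and 21 in H2-Aa. H2-Eb1 held ATTGG but not TGACG in the 250 bases before its start. Of all 32851 promoters in the table, 17.8% held TGACG on either strand, 33.8% held CCAAT on either strand, and 0.310% held TGACG followed after 10 to 30 bases by ATTGG on the strand of the gene. Of the 25 matched members, H2-Aa, H2-K1, H2-D1 and B2m held that pair. H2-D1 and B2m held it without the opposite genotype order, and H2-Eb1 had that order without the pair. Any link between these sites and the genotype order was not tested. GAGGAA, the core of a site for the myeloid factor PU.1, was in 14 of the 25 members and in 23.3% of all promoters. GAAA followed after 2 bases by a further GAAA, the core of an interferon response element, was in Aif1, B2m, Ctss and Spp1 and in 2.98% of all promoters. For every motif a member was counted if any promoter listed for it held the motif. The shares of all promoters count each promoter by itself, so the 2 are not on the same basis.

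MHC class II presents peptides to CD4+ T cells. Cd74, the invariant chain that guards the class II groove during assembly, rose in the footprints of knockout females, by 0.61 ± 0.14 (1.52-fold, adjusted p = 0.0258). Cd74 footprints stood at 14.5, 18.3 and 16.9 CPM among wild-type females, 26.5, 24.1 and 24.9 in knockout females, 35.6 and 41.6 in wild-type males and 24.5 and 20.3 in knockout males. Knockouts lay above wild types in females and below them in males, with no overlap in either sex. In input RNA, Cd74 stood at 3.20, 4.06 and 4.03 CPM among wild-type females, 5.69, 5.69 and 5.64 in knockout females, 5.09 and 9.18 in wild-type males and 3.24 and 3.70 in knockout males, again without overlap and with the same opposite order. The input difference was 0.59 ± 0.22 in females and -1.04 ± 0.28 in males, with adjusted p of 0.153 and 0.465.

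H2-Aa, the class II alpha chain, was at low counts. Its footprints stood at 2.00, 2.99 and 2.69 CPM among wild-type females, 4.25, 5.42 and 3.15 in knockout females, 8.74 and 8.47 in wild-type males and 7.06 and 5.94 in knockout males. Both sexes separated without overlap and in opposite directions, with differences of 0.73 ± 0.27 in females (adjusted p = 0.109) and -0.40 ± 0.27 in males (adjusted p = 0.963). In input, H2-Aa stood at 1.90, 2.15 and 1.81 CPM among wild-type females, 3.01, 1.797 and 1.83 in knockout females, 4.04 and 4.31 in wild-type males and 2.48 and 2.18 in knockout males, where females overlapped and males did not.

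H2-Ab1, the class II beta chain, gave the largest female input difference of the set at 1.39 ± 0.47 (adjusted p = 0.125), on few reads. Its input libraries held 3, 17 and 6 counts in wild-type females, 23, 28 and 20 in knockout females, 29 and 22 in wild-type males and 17 and 13 in knockout males. Knockout females lay above and knockout males below their wild types. H2-Ab1 footprints stood at 1.54, 2.64 and 2.55 CPM among wild-type females, 2.31, 1.68 and 2.03 in knockout females, 3.39 and 4.79 in wild-type males and 3.21 and 2.81 in knockout males and overlapped in females.
H2-Eb1, the other class II beta chain, stood at 1.52, 1.49 and 1.48 CPM among wild-type females, 2.19, 1.65 and 1.83 in knockout females, 2.81 and 1.93 in wild-type males and 1.72 and 0.870 in knockout males in input, with knockout females above and knockout males below their wild types. Its footprints stood at 2.62, 3.16 and 3.12 CPM among wild-type females, 3.52, 2.71 and 2.93 in knockout females, 4.74 and 6.26 in wild-type males and 4.23 and 2.81 in knockout males, with overlap in females. All 4 class II genes had input differences above 0 in females (median 0.46) and below 0 in males (median -0.84), against medians over all genes of 0.0092 and 0.0020, and none of the 8 differences was called. Ciita, the master regulator of class II, had at most 2 counts in a footprint library and 5 in an input library, too few to read a difference.

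MHC class I presents peptides to CD8+ T cells. H2-K1, a classical class I heavy chain, stood in input at 16.2, 14.6 and 13.2 CPM among wild-type females, 19.7, 20.1 and 18.6 in knockout females, 20.4 and 21.6 in wild-type males and 15.9 and 17.4 in knockout males. The knockouts were above the wild types in females and below them in males, and the differences were 0.41 ± 0.10 (adjusted p = 0.0502) and -0.34 ± 0.13 (adjusted p = 0.527). Without the filter on low counts the female input difference of H2-K1 was called. Footprints of H2-K1 overlapped in females: they stood at 15.7, 15.5 and 15.6 CPM among wild-type females, 16.5, 15.1 and 15.3 in knockout females, 23.02 and 24.1 in wild-type males and 20.9 and 15.5 in knockout males, a female difference of 0.0040 ± 0.14. In the test of footprints relative to input, the female difference of H2-K1 was -0.39 ± 0.17 (adjusted p = 0.329), which was not called.
H2-D1, the other class I heavy chain, stood in footprints at 62.2, 46.0 and 56.6 CPM among wild-type females, 65.3, 64.9 and 64.3 in knockout females, 70.7 and 101 in wild-type males and 74.0 and 82.3 in knockout males. In input RNA, H2-D1 stood at 23.1, 18.8 and 26.6 CPM among wild-type females, 23.9, 24.9 and 23.1 in knockout females, 24.6 and 28.1 in wild-type males and 22.3 and 27.6 in knockout males. Knockout females lay above wild-type females in footprints, and the genotypes overlapped in input. B2m, the light chain shared by class I molecules and made by most cell types, stood in footprints at 263, 274 and 308 CPM among wild-type females, 299, 359 and 365 in knockout females, 344 and 291 in wild-type males and 327 and 411 in knockout males. In input, B2m stood at 58.4, 50.9 and 48.5 CPM among wild-type females, 55.4, 55.5 and 61.3 in knockout females, 59.2 and 62.9 in wild-type males and 56.6 and 59.0 in knockout males. Its female differences were 0.27 ± 0.12 in footprints and 0.13 ± 0.081 in input, and neither was called. H2-K1 and H2-D1 are near-identical in stretches, so short reads may be split between them and the values of each are uncertain.

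Spp1, the secreted phosphoprotein osteopontin, rose in knockout females in both assays. Spp1 footprints stood at 26.6, 32.5 and 30.9 CPM among wild-type females, 47.5, 52.9 and 60.6 in knockout females, 61.9 and 59.7 in wild-type males and 43.1 and 31.0 in knockout males, and the female difference was 0.84 ± 0.14 (1.79-fold, adjusted p = 0.00970). Input RNA of Spp1 stood at 14.2, 13.01 and 13.004 CPM among wild-type females, 18.3, 20.4 and 18.7 in knockout females, 23.5 and 20.6 in wild-type males and 13.1 and 10.0 in knockout males, a female difference of 0.52 ± 0.12 (adjusted p = 0.0351). Knockout males lay below wild-type males in both assays, by -0.71 ± 0.17 and -0.93 ± 0.15, which were not called (adjusted p = 0.963 and 0.241). DESeq2 called the male input difference.
Apoe, the lipid carrier made mostly by astrocytes and also by activated microglia, stood in footprints at 2934, 3062 and 2434 CPM among wild-type females, 2308, 2079.6 and 2382 in knockout females, 3308 and 3934 in wild-type males and 3644 and 2192 in knockout males, with knockout females below wild-type females and males overlapping. Input RNA of Apoe stood at 2102, 2173 and 1895 CPM among wild-type females, 2226, 2168 and 2058 in knockout females, 2182 and 2222 in wild-type males and 2037 and 1949.5 in knockout males, with overlap in females, and no Apoe difference was called.

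**Figure D1:**
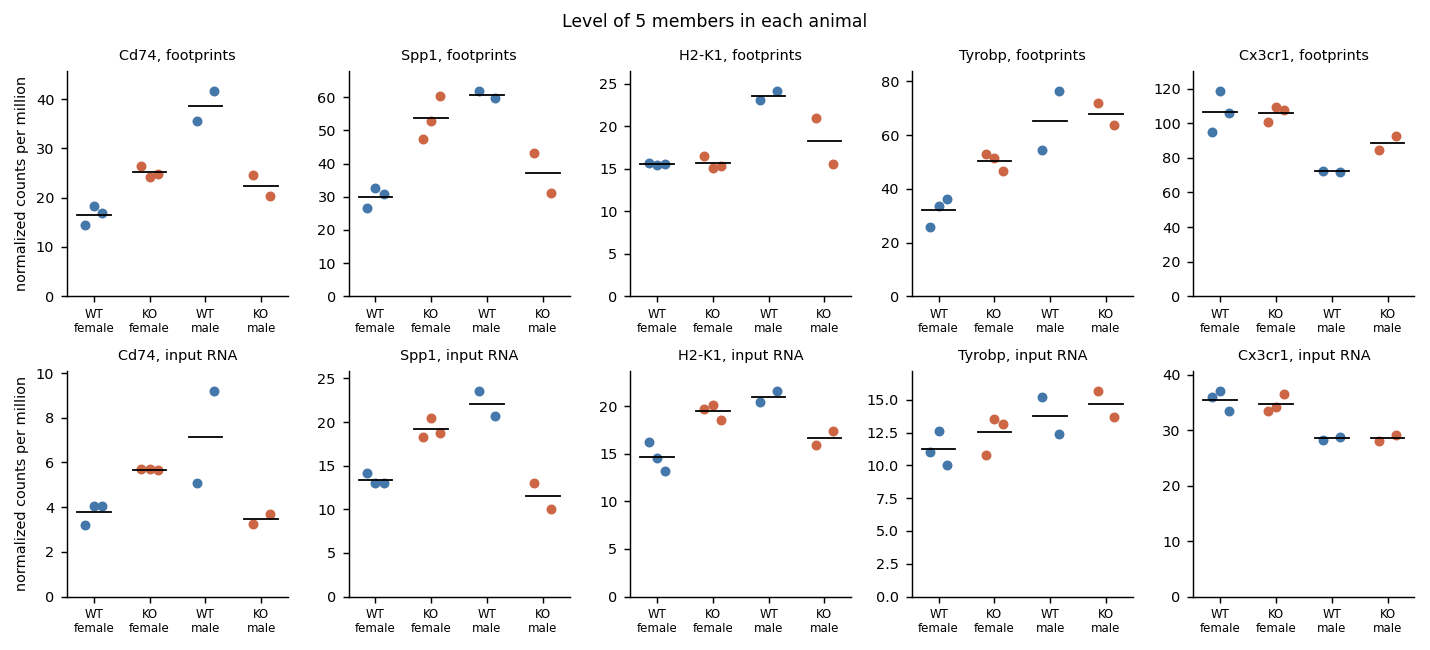
Level of Cd74, Spp1, H2-K1, Tyrobp and Cx3cr1 in normalised CPM (vertical axis, from 0) for each animal, with footprints in the top row and input RNA in the bottom row. Points are animals (blue wild type, orange knockout; 3 per female group and 2 per male group) and bars are means; Cd74 and Spp1 of knockouts lie above wild type in females and below wild type in males in both rows, while Cx3cr1 overlaps in females.

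Tyrobp, the signalling adaptor DAP12 of TREM2 and other myeloid receptors, rose in the footprints of knockout females by 0.65 ± 0.15 (1.57-fold, adjusted p = 0.0273). Tyrobp footprints stood at 25.9, 33.7 and 36.3 CPM among wild-type females, 53.0, 51.5 and 46.5 in knockout females, 54.4 and 76.4 in wild-type males and 72.0 and 63.7 in knockout males. Its females separated without overlap and its males overlapped. Input RNA of Tyrobp overlapped in both sexes, at 11.04, 12.6 and 10.0 CPM among wild-type females, 10.8, 13.6 and 13.2 in knockout females, 15.2 and 12.4 in wild-type males and 15.6 and 13.7 in knockout males. The female difference of footprints relative to input was 0.51 ± 0.21 (adjusted p = 0.316) and was not called.
Trem2, the lipid-sensing receptor that signals through Tyrobp, was not called: its footprints stood at 6.77, 7.73 and 6.95 CPM among wild-type females, 5.95, 5.29 and 7.20 in knockout females, 7.14 and 7.18 in wild-type males and 8.47 and 6.11 in knockout males, with overlap in both sexes. Input of Trem2 stood at 2.66, 2.74 and 2.22 CPM among wild-type females, 2.36, 2.62 and 2.30 in knockout females, 2.63 and 3.39 in wild-type males and 3.53 and 2.39 in knockout males and overlapped as well. Cd14, the co-receptor for lipopolysaccharide, stood in footprints at 2.93, 3.69 and 3.69 CPM among wild-type females, 3.40, 7.22 and 6.19 in knockout females, 4.68 and 5.71 in wild-type males and 6.67 and 8.42 in knockout males. The genotypes overlapped in females and the knockout males lay above the wild-type males. Its input ranged over 1.32 to 3.49 CPM with overlap in both sexes.
Tlr2, a pattern receptor for bacterial lipopeptides, stood in footprints at 2.77, 2.28 and 2.55 CPM among wild-type females, 4.37, 3.10 and 3.94 in knockout females, 3.26 and 4.97 in wild-type males and 2.95 and 2.64 in knockout males, where knockouts lay above wild types in females and below them in males. Fcer1g, the signalling chain shared by Fc receptors, stood in footprints at 10.5, 11.6 and 8.51 CPM among wild-type females, 9.22, 10.2 and 10.7 in knockout females, 13.4 and 11.4 in wild-type males and 8.60 and 10.6 in knockout males and did not separate in females. Fcgr3, a low-affinity Fc receptor that shares sequence with its family, ranged over 6.47 to 17.2 CPM in footprints and 7.94 to 12.9 CPM in input. Itgam, the integrin CD11b, missed the filter on low counts in footprints, with 2 counts in its lowest library. Its input libraries held 17, 31 and 21 counts in wild-type females, 12, 18 and 10 in knockout females, 12 and 8 in wild-type males and 9 and 10 in knockout males, a female difference of -0.83 ± 0.37 (adjusted p = 0.234).

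The homeostatic receptors gave no call in either sex. Csf1r, the receptor on which microglia depend for survival, stood in footprints at 212, 241 and 242 CPM among wild-type females, 217, 231 and 251 in knockout females, 213 and 244 in wild-type males and 214 and 232 in knockout males. In input, Csf1r stood at 117, 126 and 122 CPM among wild-type females, 114, 121 and 122 in knockout females, 96.8 and 108 in wild-type males and 99.4 and 103 in knockout males. Genotypes overlapped in both sexes and both assays, and the interval of the female footprint difference was -0.21 to 0.23. Cx3cr1, the fractalkine receptor, stood in footprints at 95.1, 119 and 106 CPM among wild-type females, 101, 109 and 108 in knockout females, 72.6 and 72.0 in wild-type males and 84.3 and 92.4 in knockout males, with overlap in females and knockouts above wild types in males. Its input stood at 35.9, 37.0 and 33.5 CPM among wild-type females, 33.4, 34.1 and 36.5 in knockout females, 28.3 and 28.7 in wild-type males and 28.0 and 29.0 in knockout males, and the interval of its female footprint difference was -0.23 to 0.21.
P2ry12, the ADP receptor that guides microglial processes, stood in footprints at 91.6, 97.7 and 76.5 CPM among wild-type females, 81.9, 87.6 and 90.4 in knockout females, 73.4 and 56.5 in wild-type males and 65.4 and 85.8 in knockout males, with overlap in both sexes. In input, P2ry12 stood at 48.6, 46.0 and 37.2 CPM among wild-type females, 36.9, 35.3 and 32.1 in knockout females, 35.8 and 38.1 in wild-type males and 34.6 and 40.5 in knockout males. Knockout females lay below wild-type females in input by -0.34 ± 0.11 (adjusted p = 0.101). P2ry13, a related nucleotide receptor, stood in input at 10.5, 13.9 and 10.9 CPM among wild-type females, 8.77, 8.39 and 8.34 in knockout females, 9.83 and 6.79 in wild-type males and 8.20 and 6.42 in knockout males, with the same order in females and a difference of -0.47 ± 0.17 (adjusted p = 0.141). Footprints of P2ry13 stood at 24.9, 32.0 and 23.3 CPM among wild-type females, 26.9, 24.2 and 30.6 in knockout females, 21.1 and 17.9 in wild-type males and 17.8 and 21.6 in knockout males and overlapped in females.
Tmem119, a membrane marker of microglia, stood in footprints at 22.0, 28.8 and 17.9 CPM among wild-type females, 20.6, 21.9 and 26.7 in knockout females, 25.1 and 29.3 in wild-type males and 35.5 and 34.3 in knockout males. The females overlapped and the knockout males lay above the wild-type males. Gpr34, a lysophosphatidylserine receptor, stood in footprints at 26.0, 27.9 and 22.98 CPM among wild-type females, 33.3, 35.6 and 23.97 in knockout females, 23.4 and 12.9 in wild-type males and 15.1 and 24.9 in knockout males, and Siglech, a sialic acid binding lectin, at 18.8, 23.9 and 20.9 CPM among wild-type females, 20.5, 22.2 and 23.1 in knockout females, 26.7 and 37.4 in wild-type males and 32.2 and 39.1 in knockout males. Both overlapped in females. Over the 7 receptors the median female difference was 0.020 in footprints and -0.033 in input, beside 0.0030 and 0.0092 over all genes.

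C1q, the starting molecule of the classical complement pathway, is built from 3 chains that microglia supply. C1qa stood in footprints at 73.4, 67.5 and 73.5 CPM among wild-type females, 74.6, 83.1 and 87.2 in knockout females, 81.6 and 76.4 in wild-type males and 90.8 and 80.0 in knockout males, with knockout females above wild-type females by 0.19 ± 0.10 (adjusted p = 0.264). Its input stood at 59.9, 52.5 and 59.3 CPM among wild-type females, 67.9, 72.9 and 69.3 in knockout females, 60.9 and 61.9 in wild-type males and 72.3 and 61.8 in knockout males, with knockout females above wild-type females by 0.29 ± 0.077 (adjusted p = 0.0606). C1qb stood in footprints at 51.1, 58.7 and 61.0 CPM among wild-type females, 49.2, 50.7 and 54.7 in knockout females, 68.2 and 67.6 in wild-type males and 68.6 and 63.5 in knockout males, and C1qc at 32.9, 35.5 and 37.4 CPM among wild-type females, 34.3, 36.6 and 40.1 in knockout females, 45.3 and 52.1 in wild-type males and 51.3 and 57.6 in knockout males. C1qb overlapped in females, with a difference of -0.14 ± 0.11, and C1qc overlapped too. No chain was called in either sex.

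Among lysosome and macrophage markers, Cd68, a lysosomal glycoprotein of phagocytes, stood in footprints at 11.7, 11.6 and 14.0 CPM among wild-type females, 14.9, 19.3 and 17.8 in knockout females, 14.9 and 14.5 in wild-type males and 19.6 and 23.9 in knockout males. Knockouts lay above wild types in both sexes, by 0.47 ± 0.16 in females and 0.56 ± 0.18 in males, and the mean of both was 0.52 ± 0.12 (adjusted p = 0.0629). Cd68 was the 1 member for which that mean was called by DESeq2, by edgeR without the filter on low counts and by edgeR without wild-type male 1. Cd68 input stood at 5.48, 5.64 and 5.51 CPM among wild-type females, 6.90, 4.72 and 5.16 in knockout females, 5.18 and 7.07 in wild-type males and 4.58 and 7.29 in knockout males and overlapped in both sexes.
Ctss, the cathepsin that trims the invariant chain, stood in footprints at 167, 174 and 178 CPM among wild-type females, 159, 199 and 177 in knockout females, 198 and 161 in wild-type males and 203 and 161 in knockout males. Laptm5, a lysosomal membrane protein of blood-derived cells, stood at 59.0, 57.1 and 63.5 CPM among wild-type females, 60.3, 67.7 and 71.2 in knockout females, 57.6 and 62.4 in wild-type males and 61.5 and 68.5 in knockout males. Lyz2, the macrophage lysozyme whose paralog Lyz1 could share its reads, stood at 11.9, 14.2 and 15.2 CPM among wild-type females, 13.2, 18.7 and 21.4 in knockout females, 18.9 and 12.9 in wild-type males and 17.3 and 14.9 in knockout males. None of these 3 was called. Mrc1, the mannose receptor of border macrophages, stood in input at 12.6, 11.8 and 11.9 CPM among wild-type females, 17.0, 13.5 and 16.4 in knockout females, 19.04 and 17.4 in wild-type males and 16.5 and 10.6 in knockout males. Knockout females lay above and knockout males below their wild types there, by 0.36 ± 0.15 and -0.42 ± 0.19, while its footprints, at 20.9, 24.2 and 18.2 CPM among wild-type females, 22.0, 17.7 and 34.7 in knockout females, 24.5 and 20.6 in wild-type males and 19.9 and 21.1 in knockout males, overlapped in females. Aif1, the cytoplasmic marker IBA1, and Ptprc, the leukocyte antigen CD45, ranged over 4.57 to 7.99 and 3.68 to 9.22 CPM in footprints and were not called.

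**Figure D2:**
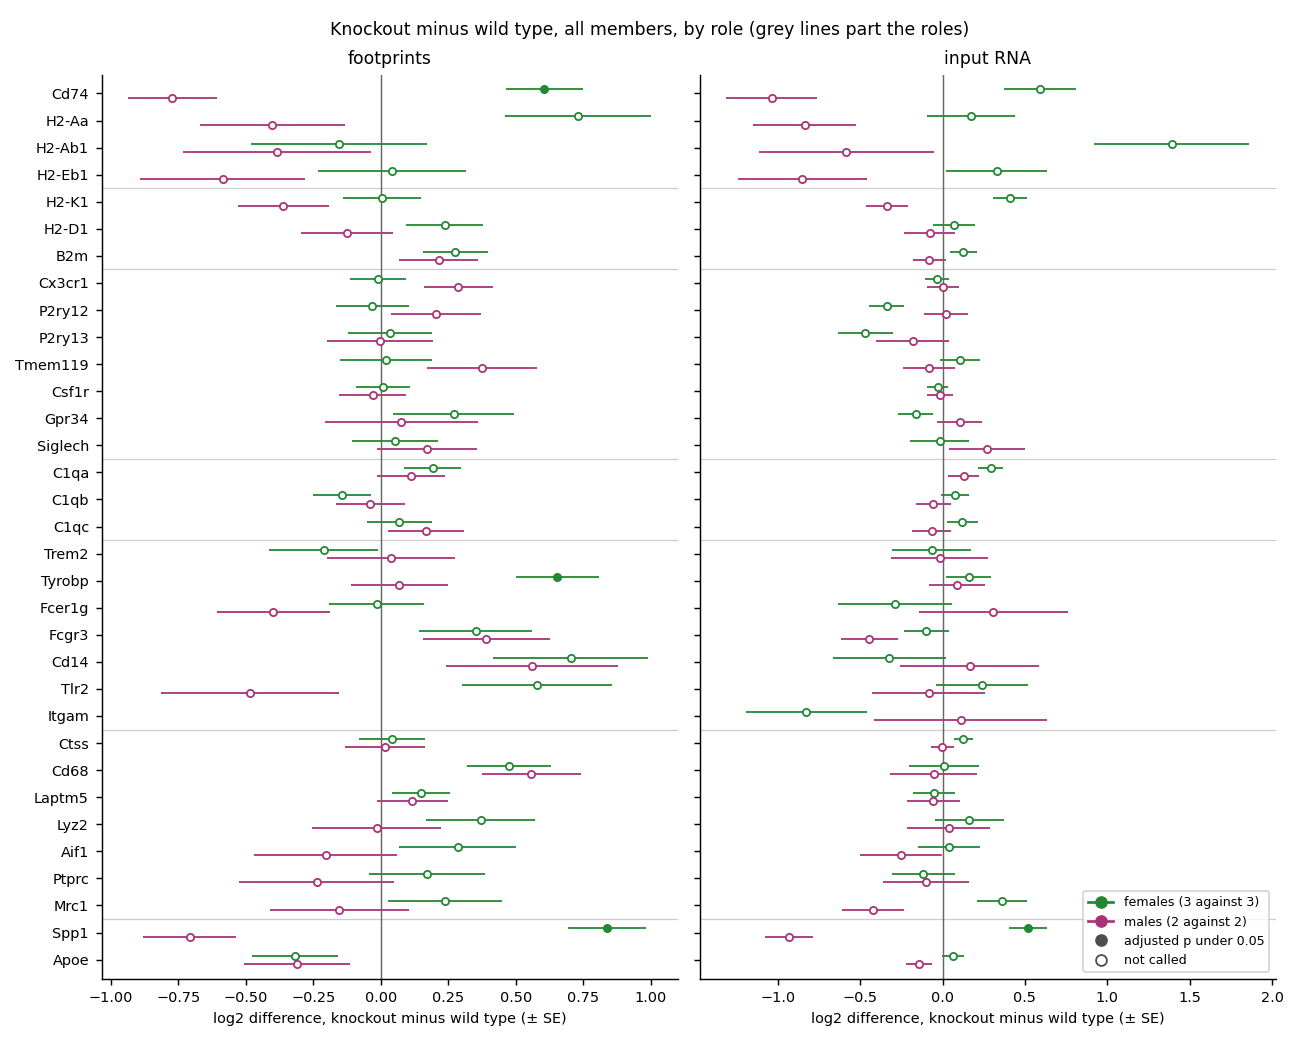
Log2 difference of knockout minus wild type (horizontal axis, ± SE) for every member, by role, in footprints (left) and input RNA (right), with females in green and males in purple. Filled points were called: Cd74, Tyrobp and Spp1 in female footprints and Spp1 in female input; no male point was called.

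Over the set, 3 of 32 tested members rose in female footprints and 0 fell, where 7.06% of all genes were called. An unadjusted p under 0.05 was reached there by Cd74, H2-Aa, B2m, Tyrobp, Cd14, Cd68 and Spp1, all higher, and by 25.6% of all genes. In female input 1 of 33 rose and 0 fell, where 3.48% of all genes were called. Unadjusted p was under 0.05 there for Cd74, H2-Ab1, H2-K1, C1qa, Ctss, Mrc1 and Spp1, all higher. P2ry12, P2ry13 and Itgam were lower at that level, which 20.1% of all genes reached. In males edgeR called 0 members and 0% of all genes in footprints, and 0 members and 0% in input. At an unadjusted p under 0.05 there were 4 of 32 members in male footprints, where 4.28% of all genes were, and 6 of 33 in male input, where 8.8% were. DESeq2 called 0 members in male footprints, of 1 gene called in all, and 1 member in male input, Spp1, of 3 genes. With the replicate number as a block, a number that in males goes with age, 0 members and 0 genes of all were called in males in either assay. For the mean of both sexes 0 members were called in footprints, where 0.00761% of all genes were called, and 0 in input, where 0.734% were. At an unadjusted p under 0.05 they held 6 members beside 19.6% of all genes in footprints, and 4 members beside 17.6% in input. DESeq2 called 1 member in footprints, Cd68, among 528 genes of all, and 0 members in input, where it called 418 genes. The median female footprint difference was 0.16 over members and 0.0030 over all genes, and 25 of 32 members lay above 0. With 1 animal left out, the set median ran from 0.091 to 0.17 in female footprints and 0.024 to 0.10 in female input. In males it ran from -0.10 to 0.043 in footprints and from -0.17 to -0.036 in input.
Some female calls were lost when 1 animal was left out. Without wild-type female 1 no member was called in footprints (adjusted p = 0.0514 for Spp1, 0.117 for Cd74 and 0.122 for Tyrobp). Without knockout female 1 or knockout female 2 only Spp1 stayed called, and Cd74 was also lost without wild-type female 3 (adjusted p = 0.0555) or knockout female 3 (adjusted p = 0.0509). Leaving out wild-type females 1 and 2 together gave 0 calls in footprints and 0 in input, with log2 differences of 0.81 for Spp1, 0.59 for Cd74 and 0.49 for Tyrobp in footprints. In input, Spp1 was not called without wild-type female 1 or 3 or without any 1 of the 3 knockout females (adjusted p from 0.0703 to 0.121). Without wild-type female 2, H2-Ab1 was called beside Spp1 in input, and without wild-type female 3, P2ry12 was called in its place. The 3 called footprint differences and the called Spp1 input difference kept their sign in all 17 alternatives. Over these alternatives the footprint difference ranged from 0.74 to 0.92 for Spp1, from 0.38 to 0.68 for Cd74 and from 0.35 to 0.76 for Tyrobp, and the input difference of Spp1 from 0.47 to 0.70.

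Opposite orders of the genotypes in the sexes recurred among members. The members were chosen with earlier results of these data known, so the shares that follow are descriptions only. In footprints every knockout lay above every wild type in females and below every wild type in males for 4 of 32 members (Spp1, Cd74, H2-Aa and Tlr2), a pattern held by 1.33% of all genes. In input it held for 6 of 33 (Spp1, Cd74, H2-K1, Mrc1, H2-Ab1 and H2-Eb1), against 1.41% of all genes. The reverse pattern held for 0 members, and for 1.24% of all genes in footprints and 1.59% in input. Without wild-type females 1 and 2, which leaves 1 wild-type female to compare with, the first pattern held for 5 of 32 members and 3.03% of all genes in footprints, and for 9 of 33 members and 4.18% of all genes in input. Members overlap in what they report, since cells that carry class II also carry Cd74, and fewer cells of a type cannot be told apart from less RNA per cell in bulk tissue. Taken one sex at a time, 9 of 32 members in female footprints had every knockout above every wild type and 1 had every knockout below, where 17.1% and 17.8% of all genes did. In male footprints 5 lay above and 8 below, against 13.2% and 13.7%. In female input 8 of 33 lay above and 2 below, against 11.8% and 13.4%, and in male input 0 lay above and 10 below, against 19.3% and 18.5%.
The difference between the sexes was itself tested. It was 1.55 ± 0.22 for Spp1 in footprints (adjusted p = 0.106) and 1.45 ± 0.19 in input (adjusted p = 0.0665). For Cd74 it was 1.38 ± 0.22 in footprints (adjusted p = 0.126) and 1.63 ± 0.35 in input (adjusted p = 0.256). These are edgeR values, and edgeR called 0 members and 0% of all genes in footprints, and 0 members and 0% in input. At an unadjusted p under 0.05 there were 5 members in footprints, where 8.44% of all genes were, and 7 in input, where 9.45% were. DESeq2 called Cd74 and Spp1 in footprints, among 27 genes of all, and 0 members in input, where it called 63 genes. Without wild-type female 2 edgeR called both genes in footprints and Spp1 in input, and without wild-type male 1 it called both in input. Without wild-type females 1 and 2, an alternative chosen after seeing the data, it called 0 members in footprints and Spp1 in input, among 2 and 14 genes of all.

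Among marker lists of other cells, only the fibroblast and meningeal list followed Cd74 and Spp1 without overlap in both sexes by mean log2 CPM of footprints. By summed CPM the border and vessel macrophage list followed them as well. The mean log2 CPM of 18 fibroblast and meningeal markers in footprints was 3.38 to 3.67 in wild-type females, 4.18 to 4.42 in knockout females, 4.39 to 4.55 in wild-type males and 3.98 to 4.12 in knockout males, the same order of groups within each sex as for Cd74 and Spp1, without overlap between genotypes. Their summed level in CPM was 466 to 676 in wild-type females, 713 to 846 in knockout females, 765 to 827 in wild-type males and 629 to 709 in knockout males. In female footprints 7 of the 18 were called and all rose, among them Col3a1, a fibrillar collagen (1.57 ± 0.29, adjusted p = 0.0103), and Ogn, a matrix proteoglycan (1.25 ± 0.20, adjusted p = 0.00867), and in input 2 of 17 rose. The list of 17 border and vessel macrophage markers had a mean of 0.72 to 0.81 in wild-type females, 1.18 to 1.51 in knockout females, 1.33 to 1.40 in wild-type males and 0.97 to 1.52 in knockout males in footprints. That mean overlapped in males. Its summed level in CPM was 80.83 to 92.07 in wild-type females and 94.29 to 111.9 in knockout females. In males it was 111 to 120.4 in wild types and 85.65 to 107.9 in knockouts, without overlap in either sex. Of the 12 markers that passed the filter 1 rose, the endocytic adaptor Dab2 (0.64 ± 0.18, adjusted p = 0.0470). Its defining genes were sparse: Lyve1 had 2 to 49 counts per footprint library, Pf4 5 to 33 and Ms4a7 2 to 15, while Cd163 had 19 to 181 and F13a1 26 to 137.
The 24 choroid plexus markers stood at 2.00 to 4.85 in wild-type females, 4.19 to 5.64 in knockout females, 5.41 to 5.55 in wild-type males and 5.24 to 5.60 in knockout males, the 16 striatum markers at 4.20 to 5.53 in wild-type females, 3.15 to 4.67 in knockout females, 3.12 to 3.57 in wild-type males and 3.14 to 3.50 in knockout males, and the 8 erythrocyte markers in the table at 0.74 to 0.87 in wild-type females, 1.11 to 1.63 in knockout females, 0.52 to 1.49 in wild-type males and 1.51 to 1.73 in knockout males. The 15 markers of monocytes, neutrophils and dendritic cells stood at -1.89 to -0.39 in wild-type females, -1.91 to -0.69 in knockout females, -1.32 to -0.37 in wild-type males and -1.28 to -1.11 in knockout males. The 44 other microglia genes, by contrast, held between 3.33 and 3.47 in all 10 footprint libraries. In female footprints, where 7.06% of all genes were called, 4 of 24 choroid plexus and 1 of 5 tested erythrocyte markers rose. There 2 of 14 astrocyte and 1 of 14 oligodendrocyte markers rose too. Of 15 striatum markers 3 fell, of 14 neuron markers 2 fell, of 12 ependymal markers 1 rose and 1 fell, and 0 of 18 endothelial and mural and 0 of 6 monocyte, neutrophil and dendritic cell markers were called. Of 16 T, B and NK cell markers 1 passed the filter, and it was not called. Without wild-type females 1 and 2, which leaves 1 wild-type female, the fibroblast markers Dcn, Fbln1 and Slc6a13 and the choroid plexus marker Slc22a8 rose in female footprints. In female input the fibroblast markers Col1a1, Col1a2, Dcn, Fbln1 and Slc6a13 rose, and choroid plexus markers were not called. Border macrophage and erythrocyte markers were called in neither assay there. With the choroid plexus and striatum means as covariates, the female footprint differences were 0.74 for Spp1, 0.38 for Cd74 and 0.35 for Tyrobp, none was called, and 1 gene of all was. The part of fibroblast, border macrophage or blood cells in the members' differences was not tested.

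**Figure D3:**
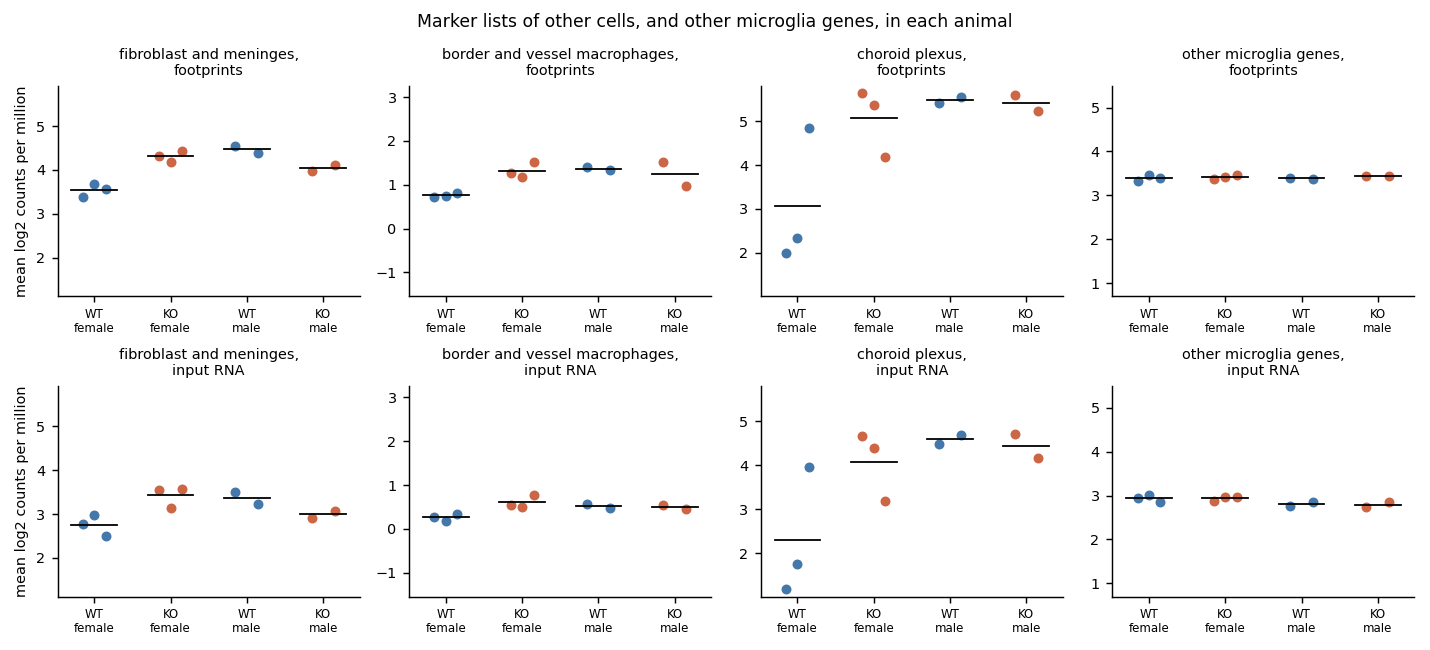
Mean log2 CPM (vertical axis) of fibroblast and meningeal, border and vessel macrophage, choroid plexus and other microglia genes in each animal, in footprints (top) and input RNA (bottom); every panel spans the same number of log2 units. Points are animals (blue wild type, orange knockout) and bars are means. The fibroblast list lies at 3.38 to 3.67 in wild-type and 4.18 to 4.42 in knockout females in footprints, while the other microglia genes stay between 3.33 and 3.47.

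Genes that act with the members were counted from lists chosen by function. Of all 13143 genes tested in female footprints, 7.06% were called, 369 higher and 559 lower. Of all 14164 in female input, 3.48% were called, 106 higher and 387 lower. Of 14 ligands and partners of microglial receptors, 12 were tested, and in females 0 rose and 2 fell in each assay. Cx3cl1, the neuronal fractalkine that binds CX3CR1, fell in footprints (-0.58 ± 0.12, adjusted p = 0.0193) and input (-0.43 ± 0.093, adjusted p = 0.0305). The mean log2 CPM of 14 neuron markers was also lower in knockout females without overlap, at 9.51 to 9.68 in wild-type females and 9.32 to 9.39 in knockout females in footprints and 8.79 to 8.92 in wild-type females and 8.64 to 8.73 in knockout females in input, and its part in the fall of Cx3cl1 was not tested. Tyro3, a receptor for Gas6 and protein S, fell in footprints (-0.40 ± 0.11, adjusted p = 0.0396) and input (-0.35 ± 0.074, adjusted p = 0.0305). Among 15 tested genes of the complement cascade, 3 rose in female footprints and 0 fell. They were the C1 inhibitor Serping1 (0.74 ± 0.16, adjusted p = 0.0190), the complement regulator Cr1l (0.71 ± 0.16, adjusted p = 0.0207) and Cd59a, which blocks the membrane attack complex (1.31 ± 0.32, adjusted p = 0.0297). None of 16 was called in input.
Of 19 tested genes raised in disease-associated microglia, 2 rose in female footprints, the tetraspanins Cd63 (0.64 ± 0.15, adjusted p = 0.0229) and Cd9 (0.63 ± 0.17, adjusted p = 0.0439), which other brain cells also make. Of 43 other microglia genes 1 rose, the Src-family kinase Lyn (0.81 ± 0.23, adjusted p = 0.0492). Among 18 genes of class I loading and the immunoproteasome 1 rose, the disulfide isomerase Pdia3 (0.40 ± 0.11, adjusted p = 0.0434). Of 7 genes of class II assembly 0 were called, with a median of 0.026, and of 26 interferon response genes 0 were called, with a median of 0.26. In female input none of these 5 lists held a call, and no gene of any list was called in males in either assay. Without wild-type females 1 and 2, which leaves 1 wild-type female, Cx3cl1 was still called lower in both assays and Tyro3 in input. The female footprint calls of the complement, disease-associated, other microglia and class I loading lists were all lost. In input, C4b of the complement list was then called higher and H2-T23 of the class I loading list lower.

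More members were called between wild-type females and wild-type males than between genotypes, in a comparison in which sex and age go together. In footprints 1 of 32 members was higher in females and 8 were lower, where 16.5% of all genes were called. The lower ones were H2-Aa (-1.75 ± 0.27), Cd74 (-1.22 ± 0.15), Tyrobp (-1.02 ± 0.17), Spp1 (-1.02 ± 0.16), H2-D1 (-0.63 ± 0.16), H2-K1 (-0.59 ± 0.15), Siglech (-0.58 ± 0.17) and C1qc (-0.46 ± 0.13), with adjusted p from 0.000544 to 0.0361. The higher one was Cx3cr1 (0.56 ± 0.12, adjusted p = 0.00771). In input 2 of 33 were higher, Cx3cr1 (0.32 ± 0.086, adjusted p = 0.0304) and Csf1r (0.25 ± 0.070, adjusted p = 0.0346), where 14.2% of all genes were called. The 6 lower ones were H2-Ab1 (-1.69 ± 0.51), H2-Aa (-1.09 ± 0.28), Cd74 (-0.92 ± 0.24), Spp1 (-0.72 ± 0.13), Mrc1 (-0.59 ± 0.17) and H2-K1 (-0.52 ± 0.11).
In footprints Cd74, H2-Aa and Spp1 were called in all 14 alternatives and Tyrobp and Cx3cr1 in 13, and in input Spp1 was called in all 14. Without wild-type females 1 and 2, an alternative chosen after seeing the data, the members called were Cd74 (-1.20), H2-Aa (-1.69) and Spp1 (-0.99) in footprints and H2-Ab1, H2-K1 and Spp1 in input, all lower in the remaining wild-type female. That fit assumes that the lone female varies like the other groups. Without wild-type male 2, 5 members stayed called in footprints and 2 in input. The input count fell to 2 when wild-type female 1 was left out, to 5 for wild-type female 2 or 3, and to 3 for wild-type male 1. The knockout comparisons and this one share their wild-type animals, so their directions are not independent.

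Footprint levels relative to input levels were high across the set in wild type, in 1 fit of all 20 libraries. Of 33 members 28 were higher in footprints and 0 were lower, where 75.3% of all genes were called and 37.0% were called as higher. The median over members was 1.13, against -0.011 over all genes. The highest were Fcer1g (2.72 ± 0.20), B2m (2.61 ± 0.090), Cd74 (2.49 ± 0.13), Tyrobp (2.07 ± 0.12) and Laptm5 (2.05 ± 0.090). MHC class II genes had a median of 1.35, class I 1.69, homeostatic receptors 1.25 and C1q 0.36. Not called were Gpr34 (0.18 ± 0.16), Aif1 (0.34 ± 0.16), Ptprc (-0.064 ± 0.17), Fcgr3 (-0.12 ± 0.13) and Itgam (-0.63 ± 0.40). Footprint and input libraries were prepared with different kits, per the labels, so these values place a gene relative to other genes of the same fit and are no measure of ribosomes per mRNA.
No genotype difference in this ratio was called among members. EdgeR called 0 of 33 members and 0.0424% of all genes in females, 0 members and 0% in males, 0 members and 0% for the mean of both sexes, and 0 members and 0% for the difference between the sexes. At an unadjusted p under 0.05 these comparisons held 5, 1, 2 and 0 members, beside 12.6%, 2.59%, 10.3% and 2.89% of all genes. DESeq2 called 0 members in each, and 132, 0, 53 and 0 genes of all. With the animal as a block, since both libraries of an animal come from 1 lysate, 0 members were called in each, while 394 genes of all were called in females against 6 without it. The member with the lowest p in females was H2-Ab1 (-1.53 ± 0.58, adjusted p = 0.272).

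**Figure D4:**
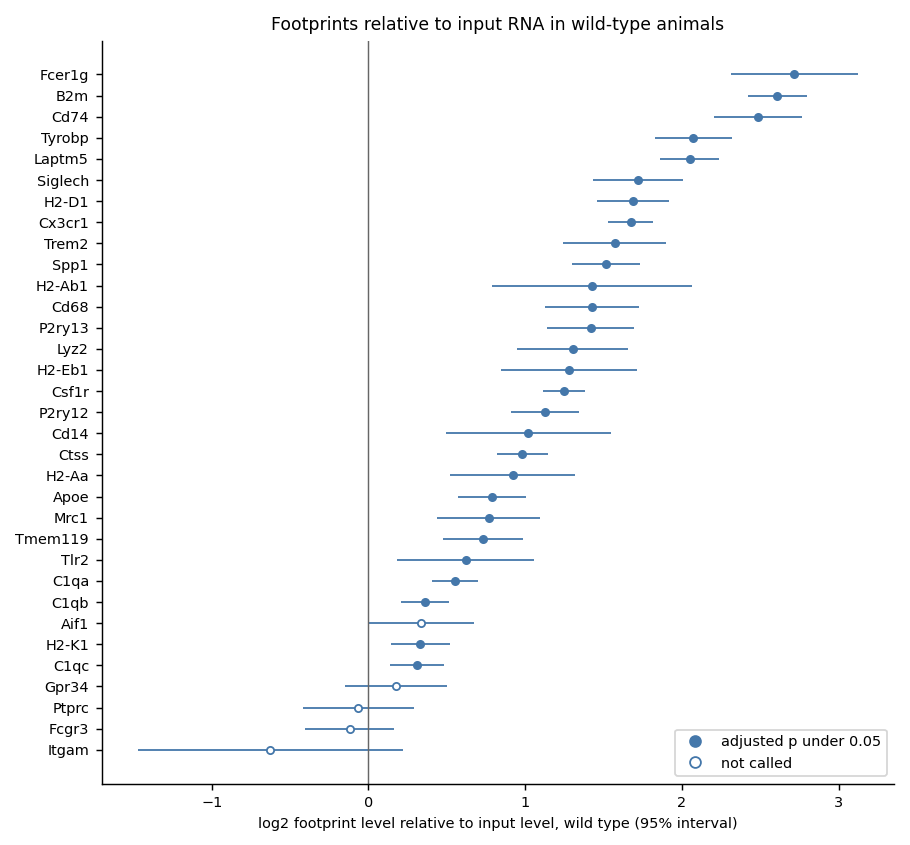
Log2 footprint level relative to input level in wild-type animals (horizontal axis, with the 95% interval of the fit) for the 33 members, in rising order from Itgam at -0.63 to Fcer1g at 2.72. Filled points were called at an adjusted p under 0.05; 28 of 33 lie above 0 and were called.

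Codon tables of the footprint libraries listed mRNAs of 17 members, and 7 of these had at least 50 footprints in every animal: B2m, C1qa, C1qb, C1qc, Mrc1, P2ry13 and Tmem119. The tables name no ribosomal site, and 99.9% of 584449 listed positions matched the codon of the GENCODE vM21 coding sequence at the same position. The most read codon in wild type is shown for the 6 members whose window lies in 1 exon, because these are the places where the set's footprints pile up. They were chosen on wild-type values, so the order of genotypes at them is a description only. Codons are numbered from 0 at the start codon, as in the tables. Capitals mark the listed codon, within 24 coding bases on either side, 5′ to 3′ on the strand of the gene.
B2m: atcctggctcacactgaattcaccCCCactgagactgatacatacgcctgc
C1qa: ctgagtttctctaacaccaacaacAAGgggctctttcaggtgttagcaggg
C1qb: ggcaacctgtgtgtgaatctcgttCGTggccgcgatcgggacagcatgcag
C1qc: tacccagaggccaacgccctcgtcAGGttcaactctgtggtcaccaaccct
P2ry13: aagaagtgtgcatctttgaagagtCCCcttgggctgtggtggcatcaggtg
Tmem119: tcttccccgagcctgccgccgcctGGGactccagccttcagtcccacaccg
In GRCm38 the windows lie at chr2:122151055-122151105 in exon 2 of B2m on the plus strand, and on the minus strand at chr4:136896283-136896333 in exon 3 of C1qa, chr4:136880475-136880525 in exon 3 of C1qb, chr4:136890340-136890390 in exon 3 of C1qc, chr3:59209786-59209836 in exon 2 of P2ry13 and chr5:113795556-113795606 in exon 2 of Tmem119. Codon 91 of B2m, CCC for proline, held 11.05%, 11.3% and 14.6% in wild-type females, 7.72%, 12.8% and 13.5% in knockout females, 5.86% and 15.8% in wild-type males and 11.2% and 12.1% in knockout males of the footprints of its mRNA. Codon 194 of C1qa, AAG for lysine after a pair of asparagine codons, held 10.1%, 13.6% and 15.6% in wild-type females, 14.1%, 19.5% and 20.3% in knockout females, 12.6% and 11.4% in wild-type males and 9.62% and 13.5% in knockout males. Genotypes overlapped at both codons in females. Codon 139 of C1qc, AGG for arginine, held 6.37%, 8.18% and 7.18% in wild-type females, 5.16%, 5.32% and 6.35% in knockout females, 18.0% and 20.8% in wild-type males and 18.4% and 13.1% in knockout males, with all males above all females in either genotype, knockout females below wild-type females, and overlap in males. Codon 181 of P2ry13, CCC for proline, held 8.18%, 9.09% and 10.5% in wild-type females, 7.73%, 7.03% and 5.68% in knockout females, 6.77% and 8.42% in wild-type males and 5.18% and 3.97% in knockout males, with knockouts below wild types in both sexes. Codon 183 of C1qb, CGT for arginine, held 3.54%, 6.41% and 7.46% in wild-type females, 10.7%, 10.5% and 6.78% in knockout females, 7.20% and 11.6% in wild-type males and 6.81% and 9.34% in knockout males, with overlap in both sexes. Codon 52 of Tmem119, GGG for glycine, held 21.6%, 11.7% and 4.08% in wild-type females, 0.971%, 1.03% and 9.82% in knockout females, 0.752% and 9.38% in wild-type males and 5.84% and 1.96% in knockout males, the widest spread of the 6 and on as few as 96 footprints in a library.

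Queuosine tRNAs read the codons of tyrosine, histidine, asparagine and aspartate, so the footprints of the 7 members were also counted at these. Such codons made up between 7.53% (Tmem119) and 17.3% (Mrc1) of their coding sequences. With the codon 1 upstream of the listed one as the codon read, 22.8%, 22.9% and 22.3% in wild-type females, 25.8%, 25.9% and 23.98% in knockout females, 23.2% and 21.4% in wild-type males and 23.4% and 25.0% in knockout males of the 7 members' footprints lay on them. Knockouts lay above wild types in both sexes without overlap. The same share over all other mRNAs was 22.0%, 22.8% and 22.0% in wild-type females, 22.7%, 22.9% and 22.4% in knockout females, 21.4% and 20.4% in wild-type males and 21.4% and 22.4% in knockout males, which overlapped in females. With the listed codon itself, the members' share was 14.7%, 14.3% and 12.5% in wild-type females, 14.3%, 12.4% and 13.8% in knockout females, 14.3% and 14.0% in wild-type males and 14.6% and 13.7% in knockout males, which overlapped in both sexes. Over all other mRNAs that share was 17.9%, 18.1% and 17.2% in wild-type females, 18.99%, 19.3% and 19.1% in knockout females, 16.7% and 17.5% in wild-type males and 18.3% and 19.2% in knockout males, and knockouts lay above wild types without overlap in either sex. B2m gave the most footprints of the 7 and so weighs most in their sum. Its own share at the upstream codon was 25.3%, 27.8% and 25.5% in wild-type females, 29.8%, 27.2% and 25.6% in knockout females, 28.5% and 27.7% in wild-type males and 28.1% and 29.4% in knockout males, with overlap in both sexes. The sums of 7 mRNAs are small, at 2371 to 7870 footprints per animal, and no test was made of them. Shares at the codon 1 downstream of the listed one were also counted and are not reported here.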

How the data were processed

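Hippocampal lysates of 10 mice gave a footprint library, from RNA shielded against RNase I, and an input library after rRNA depletion, per the labels' protocols. The authors deposited 1 table of whole-number read counts per gene for all 20 libraries. They also deposited codon tables for the 10 footprint libraries, with the count of footprints at a codon, a single-codon occupancy ratio and the percent of the coding sequence covered, per the file headers. The counts were used to compute shares, and the ratio and percent columns were not printed. The submitters' processing notes name cutadapt 1.8.1, Trimmomatic 0.39, Bowtie 1.0.0 and 1.2.2 and SAMtools 0.1.19; no genome build, counting tool or strand setting is given in the sources used here.

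The members and all gene lists were chosen with earlier results of these data known, so their counts are descriptions. Members were matched by symbol. Counts were fitted with edgeR 4.0.16 in R 4.3.3 by the quasi-likelihood test, with TMM scaling and a filter on low counts (filterByExpr, minimum count 10) on the 4 groups of sex and genotype. Each assay had its own fit, and footprints relative to input came from 1 fit of all 20 libraries with an interaction term. This left 13143, 14164 and 14146 genes tested and 32, 33 and 33 members, and Itgam missed the filter in footprints. P-values were adjusted by Benjamini-Hochberg over all genes tested. Levels are TMM-normalised CPM without correction for gene length, so levels of different genes are not compared.

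The labels give each library an animal number, and the 2 libraries of 1 animal deviated together from their group means (r from 0.257 to 0.548 over 10 animals). In a group of 2 the deviations mirror each other, so both males of a genotype share 1 r. It was 0.355 in wild-type and 0.257 in knockout males. Replicates of a group differed by more than counting error (chi-square per degree of freedom 3.55 to 15.0 over genes of at least 20 counts). Per-animal values are given for members called in any comparison, for the member with the largest female difference in each role, and for a fixed list of well-known members; other members are given by their range. Of each gene list at most 4 called genes are named, and the results of some list genes are not reported here. Alternatives were RLE scaling, no filter, DESeq2 1.42.0, leaving out each animal, leaving out wild-type females 1 and 2, a replicate block, fits within 1 sex, and choroid plexus and striatum marker means as covariates. Leaving out wild-type females 1 and 2 was added after seeing the data for the wild-type comparison of the sexes, the sex difference, the opposite orders and the gene lists. The test steps were checked on simulated counts. Promoters are from RefSeq tables, and coding windows from the GENCODE vM21 annotation of GRCm38; tables of codon enrichment were not used.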

Additional observations from a re-analysis of the deposited data

Results flagged for a closer look

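For 10 values every knockout stood above every wild type in females and below every wild type in males, and the difference of the sexes (female minus male log2 difference) did not pass the adjusted test for any of them. In footprints it was 1.55 for Spp1 (adjusted p = 0.106, edgeR), 1.38 for Cd74 (0.126), 1.13 for H2-Aa (0.418) and 1.06 for Tlr2 (0.539). In input RNA it was 1.45 for Spp1 (0.0665), 1.63 for Cd74 (0.256), 0.74 for H2-K1 (0.256), 0.79 for Mrc1 (0.342), 1.97 for H2-Ab1 (0.404) and 1.18 for H2-Eb1 (0.474). Fibroblast and meningeal markers, as a list mean, also stood higher in knockout females and lower in knockout males than in their wild types. So did border and vessel macrophage markers in summed footprint CPM. The part of either list in these values was not tested. In males each value rests on 2 animals per genotype, of 2 ages.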

How the results depend on the processing

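Of 230 recomputed counts of called members, 196 stayed within 1.5 times the reported count, most of them in comparisons where the reported count was 0. Where members had been called, fewer counts held: 11 of 17 for female footprints and 8 of 17 for female input. For wild-type females against wild-type males 12 of 14 held in footprints and 8 of 14 in input. No difference of a called member changed its direction in any alternative. The counts in male footprints, input of both sexes, the 4 tests of footprints relative to input and the wild-type ratio of footprints to input held in all alternatives. For female footprints, called in 3 members, the count was 0 without wild-type females 1 and 2 and 0 with choroid plexus and striatum marker covariates, and leaving out 1 animal gave 0 to 3. For female input, called in 1 member, it was 2 without a filter, 0 without wild-type females 1 and 2 and 0 with the covariates, and leaving out 1 animal gave 0 to 2. With the replicate number as a block within sex it was 1 in female footprints (Spp1) and 0 in female input. Same-numbered females of the 2 genotypes correlated at -0.207 to -0.121 in footprints and -0.210 to -0.114 in input, and same-numbered males at -0.0778 and 0.0944, and the labels give same-numbered males the same age, while the females' numbers were not shown to pair animals. The male counts stayed at 0 with the block. For footprints of both sexes, called in 0 members, no filter and DESeq2 each gave 1, and leaving out 1 animal gave 0 to 1. For the sex difference in footprints, called in 0 members, no filter and DESeq2 each gave 2 and leaving out 1 animal gave 0 to 2; in input no filter gave 1, leaving out wild-type females 1 and 2 gave 1 and leaving out 1 animal gave 0 to 2. For male input, DESeq2 gave 1 where edgeR gave 0. For wild-type females against wild-type males, leaving out 1 animal gave 5 to 11 members in footprints and 2 to 7 in input, and leaving out wild-type females 1 and 2 gave 3 in each, where 9 and 8 were reported. For this comparison and the sex difference that last setting was chosen after seeing the data. Over all genes, the count called in footprints of both sexes was 1 with edgeR, 534 without a filter and 528 with DESeq2, and in female footprints it was 928, 1382 and 1148, and 308 with the block. In female input 493 genes were called, 324 with the block and 0 with the covariates. The cause of these shifts was not tested. Fits with an animal left out of a male group assume that the lone male varies like the other groups. Class II genes other than Cd74 had few reads and Itgam too few for a footprint test, which limits the differences that could be detected in them.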
